A study of Mus musculus with 9 samples.

Results

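The expression of 8 genes of cholesterol synthesis and its feedback control, Hmgcs1, Sqle, Idi1, Fdps, Fdft1, Lss, Cyp51 and Insig1, was examined in the tibialis anterior muscle of mice given dexamethasone (DEX), a synthetic glucocorticoid, with or without dietary turmeric extract (TE). Their probe sets, groups of short probes that each report 1 or more transcripts, were those that the array annotation assigned to exactly 1 of these symbols. There were 21 such probe sets among the 45037 on the array. The DEX + TE group was injected intraperitoneally with 5 mg/kg DEX daily for 7 d and ate an AIN93-based diet containing 2% TE, the DEX group received the same injections on the AIN93-based diet, and the control group received saline on that diet. The methods put the start of the diets 5 d ahead of the injections, while the labels describe turmeric as following DEX. All animals were 15-week-old male C57BL/6J mice, 3 per group with 1 array each, and those with body and muscle weights near the average were chosen for the arrays.

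Cholesterol is built in the cell from acetyl-CoA through mevalonate, the isoprenoid diphosphates, squalene and lanosterol. The transcription factor SREBP2 drives most genes of this pathway when membrane sterol is low, and the INSIG proteins hold its precursor in the endoplasmic reticulum when sterol is high. The related factor SREBP1c mainly drives fatty acid synthesis and is induced by insulin and by the sterol sensor LXR. Because the genes of the pathway share SREBP2, they are often read together as a gauge of cellular sterol demand.

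The values were linear signal intensities, and differences between groups were taken as log2 fold changes. The trimmed mean signal was set to the same level on every array, but median signals differed, with 84.7 or more in DEX + TE mice, 71.3 to 77.7 in DEX mice and 76.0 to 86.2 in control mice. The correlation of log2 signals between any pair of arrays was between 0.8956 and 0.9135. The lowest values were of control replicate 1, at 0.8956 to 0.9045 with the other arrays. Among pairs without control replicate 1 the lowest was 0.9037. Fkbp5, a direct glucocorticoid target, averaged 4234 ± 302 in DEX + TE mice, 5724 ± 1869 in DEX mice and 1163 ± 187 in control mice (SD, n = 3 each), and rose by 2.26 on the log2 scale in DEX against control (limma, adjusted p = 0.0134). That call held in 7 of the 9 fits that left out 1 array, and was lost without control replicate 2 or control replicate 3, by the Rank Product, a test on ranks within arrays, and in a fit on only the 6 arrays compared. The 10 glucocorticoid targets listed did not share a direction in DEX against control, with 5 above 0 and 5 below (median -0.03). Sgk1 was called lower (-0.72, adjusted p = 0.0416), a call lost in each of those 9 fits. Tsc22d3 (-0.80, adjusted p = 0.0685) and Per1 (-1.38, adjusted p = 0.0609) were below the control group without overlap and were not called. Cdkn1a (1.83, limma adjusted p = 0.0636), Mt2 (1.47, 0.180) and Mt1 (1.39, 0.105) were above the control group without overlap and were not called either. The 10 skeletal muscle markers, such as Acta1 and Ckm, were all detected, and none was below 50 on all arrays.

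Of the 8 genes, 5 (Hmgcs1, Idi1, Lss, Cyp51 and Insig1) had an entry in the RefSeq promoter table of mouse build GRCm38.p6. The 250 bases before the start are printed 5′ to 3′ for Hmgcs1, which encodes the enzyme that makes HMG-CoA, for Insig1, the gene whose DEX and control signals separated, and for Lss, the gene whose DEX + TE and DEX signals separated. They lie at chr13:119690101-119690350 (plus strand), chr5:28071162-28071411 (plus strand) and chr10:76531355-76531604 (plus strand). Capitals mark the sterol response element TCACCCCAC, the NF-Y box CCAAT and the glucocorticoid receptor motif AGAACA on either strand, so that CCAAT appears as ATTGG where it lies on the other strand.
Hmgcs1: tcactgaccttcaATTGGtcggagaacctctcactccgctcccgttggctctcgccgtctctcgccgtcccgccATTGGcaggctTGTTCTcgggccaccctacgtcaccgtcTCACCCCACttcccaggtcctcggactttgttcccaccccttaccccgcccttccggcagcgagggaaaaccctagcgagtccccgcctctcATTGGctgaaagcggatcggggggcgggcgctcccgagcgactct
Insig1: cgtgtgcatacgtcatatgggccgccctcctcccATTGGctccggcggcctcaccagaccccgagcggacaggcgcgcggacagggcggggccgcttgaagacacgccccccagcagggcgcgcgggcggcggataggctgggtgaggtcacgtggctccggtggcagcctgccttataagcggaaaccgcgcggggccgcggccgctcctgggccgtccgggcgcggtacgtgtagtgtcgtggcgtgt
Lss: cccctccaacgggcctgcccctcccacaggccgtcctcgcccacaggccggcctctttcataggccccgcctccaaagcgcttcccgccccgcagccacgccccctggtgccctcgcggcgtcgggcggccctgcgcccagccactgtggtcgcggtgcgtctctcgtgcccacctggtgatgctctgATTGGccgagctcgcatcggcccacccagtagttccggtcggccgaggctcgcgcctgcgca

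The sterol response element was found only in Hmgcs1 among these 5 promoters, from base -137 to base -129 before the start, and 0.496% of the 32851 promoters in the table held it. The looser form TCACNCCAC, which includes the first, matched the same site and was present in 1.05% of promoters. The element ATCACGTGA was in 0 of the 5 and in 0.277% of all promoters. All 5 held at least 1 NF-Y box, against 33.8% of all promoters, and at least 1 GC box (GGGCGG, not capitalised), against 32.7%. NF-Y and Sp1, which bind these last boxes, are known cofactors of SREBP. The motif AGAACA, the core to which the glucocorticoid receptor binds, was in Hmgcs1 only, from base -165 to -160, and in 16.1% of all promoters. These are matches of letters and not measured binding.

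None of the 8 genes passed the test in any comparison, and the 3 comparisons share arrays with each other. A probe set was called where limma gave an adjusted p under 0.05 over the 29269 probe sets tested and the log2 fold change was 0.6 or more in size. Of the 21 probe sets, 18 passed the filter of a group mean of 50, and at least 1 passed for each gene. The other 3, Hmgcs1 1441536_at, Fdps 1438150_at and Cyp51 1422534_at, were below 50 on all 9 arrays. In DEX against control 0 of the 18 were called, against a background of 0.502% of all probe sets tested. Likewise 0 were called in DEX + TE against DEX (background 0.0137%) and 0 in DEX + TE against control (background 0.379%). By the Rank Product 0 of the 18 were also called in each comparison, against 0.328%, 0.123% and 0.434% of all probe sets in the same order. At an unadjusted p under 0.05 there was 1 of 18 in DEX against control (Insig1, background 14.4%), 1 in DEX + TE against DEX (Lss 1426913_at, background 7.76%) and 0 in DEX + TE against control (background 13.8%).

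**Figure D1:**
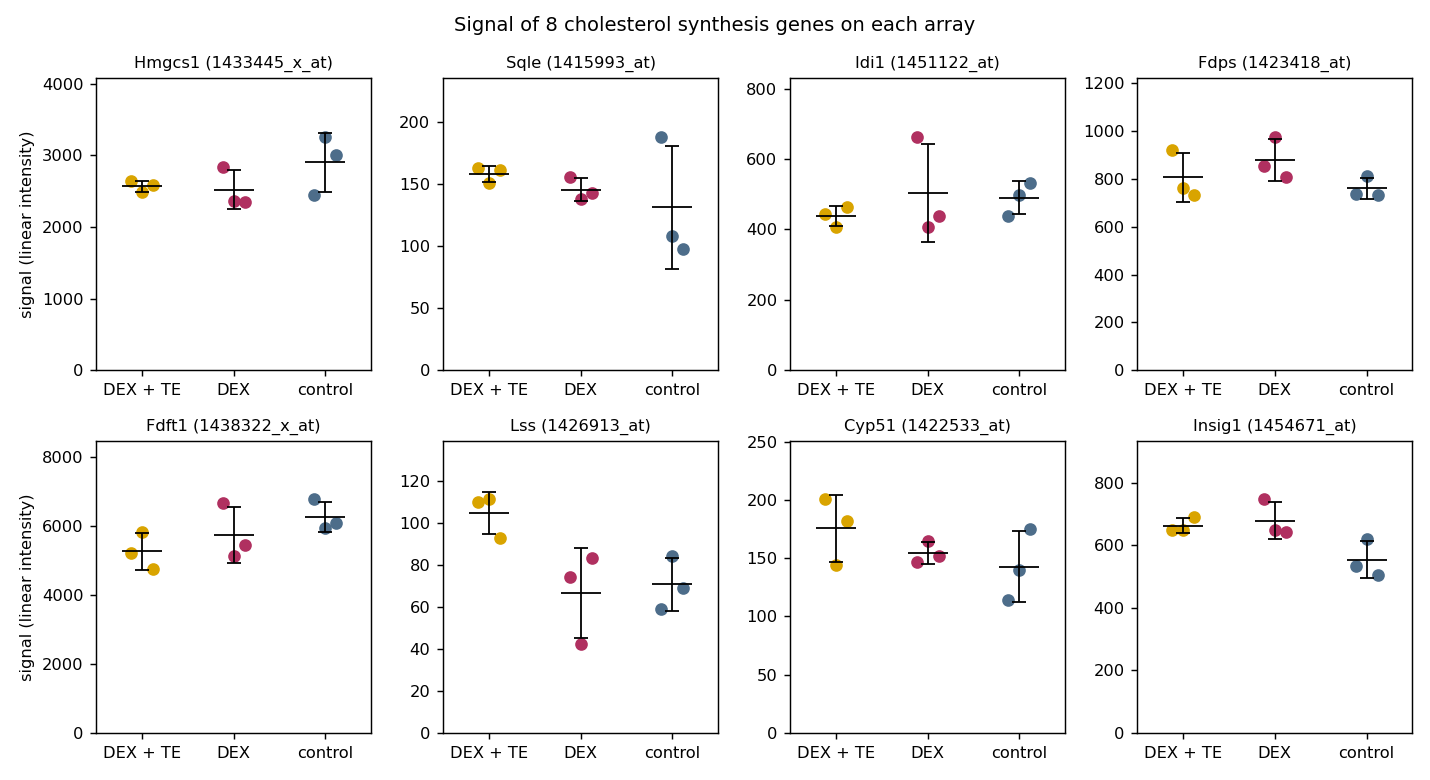
Signal (linear intensity) of the 8 genes on each array, by the brightest probe set of each gene, in the DEX + TE, DEX and control groups. Points are mice, and the long bar and whiskers give the mean and SD (n = 3). The 3 DEX values of Insig1 lie above the 3 control values, and the 3 DEX + TE values of Lss lie above the 3 DEX values, while the points of the other 7 genes overlap between DEX and control.

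The signals of the 3 mice in a group were often as far apart as the groups themselves. Of the 18 probe sets, the groups did not overlap for 1 in DEX against control (background 21.2%), for 2 in DEX + TE against DEX (14.8%) and for 5 in DEX + TE against control (22.7%). The first was Insig1, and the next 2 were both of Lss and pointed in opposite directions. Of the 18, 4 reached the group mean of 50 in 1 group only, and 14 in all 3. Lss 1420013_s_at was 1 of the 4 and passed only through the DEX group, where it was high, so the filter favoured its separation there and it carries no weight. The 5 were Idi1 1423804_a_at, Lss 1426913_at and Insig1, which were higher in the DEX + TE group, and the 2 bright Fdft1 probe sets, which were lower. The pooled within-group SD of the log2 signal had a median of 0.24 over the 18 probe sets, compared with 0.29 over all probe sets tested. Since the tissue was measured in bulk, fewer cells of a type and less RNA per cell cannot be told apart in any of these values.

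Hmgcs1 encodes HMG-CoA synthase, which acts at the entry to the mevalonate pathway. Its brightest probe set, 1433445_x_at, gave 2640, 2486 and 2581 in the DEX + TE mice, 2838, 2370 and 2355 in the DEX mice, and 2448, 3261 and 3001 in the control mice. The lowest control signal lay inside the DEX range and below all DEX + TE values, so the groups overlapped. The log2 fold change in DEX against control was -0.20 (SE 0.14, 95% interval -0.52 to 0.12, limma adjusted p = 0.552), and in DEX + TE against DEX it was 0.03 (-0.29 to 0.35, adjusted p = 0.969). The probe set 1433443_a_at of the same gene had the smallest spread of the 18, with a pooled SD of 0.08, and 5.84% of all probe sets varied less. Its signals were 2656, 2457 and 2320 in the DEX + TE mice, 2730, 2562 and 2506 in the DEX mice, and 2564, 2796 and 2803 in the control mice. The differences were -0.07 in DEX against control (95% interval -0.29 to 0.16) and -0.07 in DEX + TE against DEX (-0.30 to 0.16). In DEX against control all 4 tested probe sets of Hmgcs1 were below 0, from -0.29 to -0.07, with intervals that included 0.

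Idi1 encodes isopentenyl diphosphate isomerase, which interconverts the basic isoprene units. Probe set 1451122_at gave 443, 407 and 463 in the DEX + TE mice, 663, 407 and 439 in the DEX mice, and 439, 497 and 532 in the control mice. A single DEX mouse was higher than every other animal. The log2 fold changes were 0.01 in DEX against control (95% interval -0.44 to 0.46, limma adjusted p = 0.989) and -0.17 in DEX + TE against DEX (-0.62 to 0.28, adjusted p = 0.861). The other Idi1 probe set, 1423804_a_at, gave 317, 314 and 304 in the DEX + TE mice, 313, 277 and 344 in the DEX mice, and 162, 299 and 254 in the control mice. Its difference of 0.43 both in DEX against control (-0.09 to 0.94) and in DEX + TE against control (-0.08 to 0.95) did not pass the test, and the probe sets differed in the sign of DEX + TE against control.

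Fdps encodes farnesyl diphosphate synthase, whose product feeds sterol synthesis, protein prenylation and ubiquinone. Its tested probe set gave 922, 764 and 735 in the DEX + TE mice, 853, 977 and 810.2 in the DEX mice, and 737, 812 and 733 in the control mice. The highest control value was just above the lowest DEX value, so these groups overlapped, and the DEX + TE values overlapped both. The log2 fold changes were 0.21 in DEX against control (SE 0.13, 95% interval -0.09 to 0.51, limma adjusted p = 0.508) and -0.13 in DEX + TE against DEX (-0.43 to 0.17, adjusted p = 0.842).

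Fdft1 encodes squalene synthase, the first enzyme committed to sterols. The probe set 1438322_x_at gave 5219, 5833 and 4765 in the DEX + TE mice, 6673, 5117 and 5437 in the DEX mice, and 6769, 5952 and 6093 in the control mice. The 3 DEX + TE values were below the 3 control values, and the DEX values spanned both. The log2 fold change in DEX + TE against control was -0.25 (SE 0.14, 95% interval -0.57 to 0.07, limma adjusted p = 0.456), and that of 1448130_at, the other bright probe set, was -0.13 (-0.41 to 0.14, adjusted p = 0.648). In DEX against control the values were -0.13 and -0.10. The 2 dim Fdft1 probe sets, 1438918_at and 1438919_x_at, were below 50 on some arrays, and their intervals reached from -2.67 to 2.60 over the comparisons of DEX against control and DEX + TE against DEX.

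Sqle encodes squalene epoxidase, an oxygen-dependent and rate-controlling step. It gave 163, 151 and 162 in the DEX + TE mice, 156, 138 and 143 in the DEX mice, and 188, 108 and 97.97 in the control mice. The highest and the lowest signals of the gene were both in control animals. The log2 fold changes were 0.21 in DEX against control (SE 0.23, 95% interval -0.33 to 0.76, limma adjusted p = 0.724) and 0.12 in DEX + TE against DEX (-0.42 to 0.67, adjusted p = 0.922). With each array left out in turn, the DEX against control value ranged from 0.031 (without control replicate 3) to 0.50 (without control replicate 1).

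Lss encodes lanosterol synthase, which closes squalene epoxide into the first sterol. Probe set 1426913_at gave 109.8, 111 and 92.9 in the DEX + TE mice, 74.2, 42.3 and 83.1 in the DEX mice, and 58.9, 84.03 and 69.04 in the control mice. Every DEX + TE mouse was above every mouse of both other groups. The log2 fold change in DEX + TE against DEX was 0.71, or 1.63-fold (SE 0.27, 95% interval 0.09 to 1.33), and missed the call at a limma adjusted p of 0.596. In DEX + TE against control it was 0.58 (-0.04 to 1.20, adjusted p = 0.392). Over the 20 settings of the analysis the DEX + TE against DEX value lay between 0.41 and 0.90. The other Lss probe sets each passed the filter through 1 group only, 1420013_s_at through DEX and 1420014_at through DEX + TE. The filter favoured their directions in DEX + TE against DEX, which carry no weight. Probe set 1420013_s_at gave 61.1, 55.7 and 17.95 in the DEX + TE mice, 107, 99.95 and 104 in the DEX mice, and 8.61, 119.7 and 12.2 in the control mice, a difference of -1.39 in DEX + TE against DEX (-3.65 to 0.87). Probe set 1420014_at gave 0.36 (-0.60 to 1.32).

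Cyp51 encodes lanosterol 14-alpha demethylase, the cytochrome P450 of the pathway. Probe set 1422533_at gave 200.4, 144 and 182 in the DEX + TE mice, 146, 165 and 152 in the DEX mice, and 114, 139.5 and 175 in the control mice. The groups overlapped in all 3 comparisons. The log2 fold changes were 0.13 in DEX against control (95% interval -0.31 to 0.57, limma adjusted p = 0.787) and 0.18 in DEX + TE against DEX (-0.26 to 0.62, adjusted p = 0.852), while probe set 1450646_at gave 0.10 and -0.25 with wider intervals.

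Insig1, itself a target of SREBP, encodes the sterol-sensing retention protein that closes the feedback loop. Its probe set gave 648, 649.8 and 692 in the DEX + TE mice, 747, 651 and 641 in the DEX mice, and 535, 619.9 and 507 in the control mice. All 6 DEX-injected mice were above all 3 control mice. The log2 fold change in DEX against control was 0.30, or 1.23-fold (SE 0.12, 95% interval 0.03 to 0.57), with a limma adjusted p of 0.306, and in DEX + TE against control it was 0.27 (-0.01 to 0.54, adjusted p = 0.371). Between DEX + TE and DEX it was -0.03 (-0.30 to 0.24, adjusted p = 0.962). Over all 20 settings of the analysis the DEX against control value lay between 0.23 and 0.40, and the adjusted p was never below 0.201.

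**Figure D2:**
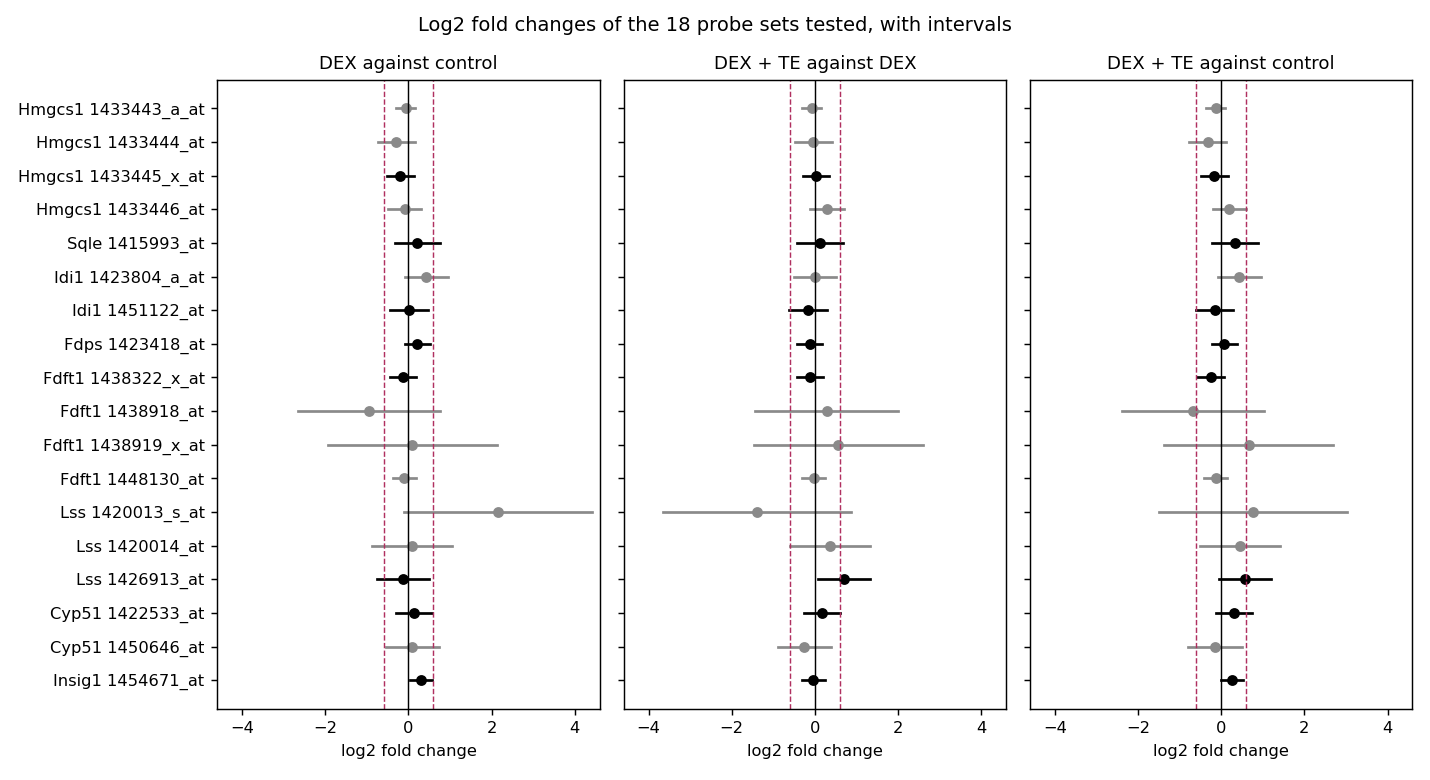
Log2 fold changes (points) with 95% intervals (lines) of the 18 probe sets tested, for DEX against control, DEX + TE against DEX and DEX + TE against control. Black marks the brightest probe set of each gene, grey the others, and dashed lines the fold limit of 0.6. Most lines of the bright probe sets stay near 0, and those of the Fdft1 and Lss probe sets that passed the filter in 1 group only are wider.

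The intervals bound the size of change for each probe set under the scaling used, and do not cover a change of scaling. In DEX against control the 95% interval lay within 0.6 of 0 for 6 of the 8 genes, by their brightest probe set, and within 1 of 0 for all 8. The counts were 4 and 7 of the 8 genes in DEX + TE against DEX, with Lss outside, and 4 and 7 in DEX + TE against control. Over all 18 probe sets tested they were 9 and 14, 8 and 13, and 6 and 13 in the same order of comparisons. The median log2 fold change of the 8 genes was 0.07 in DEX against control, beside -0.03 over all probe sets tested. It was 0.00 in DEX + TE against DEX, beside 0.05, with 4 genes above 0 and 4 below, and 0.17 in DEX + TE against control, beside 0.05.

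**Figure D3:**
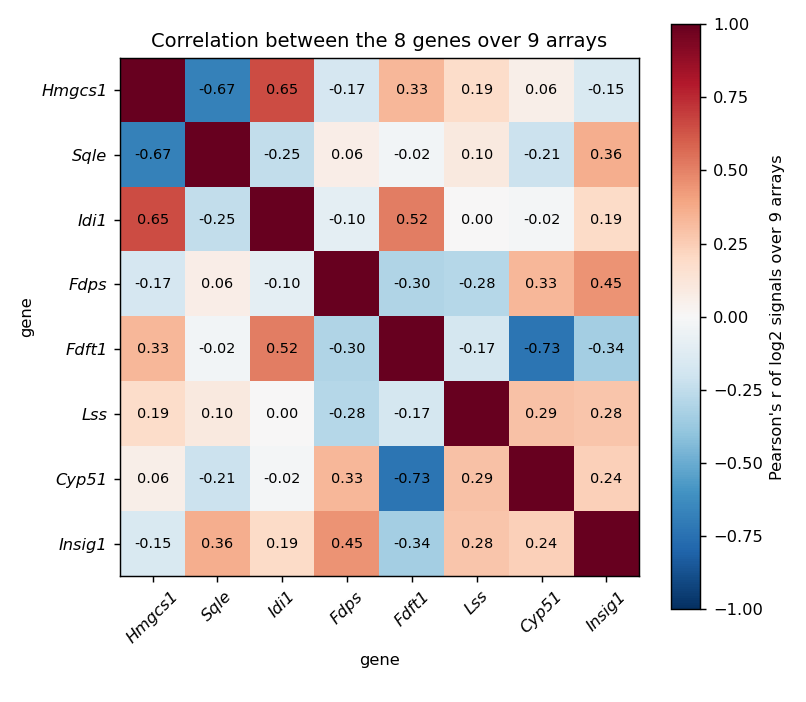
Pearson's r of the log2 signals of the 8 genes over the 9 arrays, in colour from -1 to 1 and as numbers. The highest value is 0.65 for Hmgcs1 with Idi1, and the lowest is -0.73 for Fdft1 with Cyp51.

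The 8 genes were on balance weakly correlated from mouse to mouse. Over the 9 arrays, which share the group differences and the scaling of each array, the 28 pairs of genes had a median r of 0.03, and 15 were above 0. Hmgcs1 and Idi1 were the most alike (r = 0.65), and Fdft1 and Cyp51 the most opposed (r = -0.73). After the group means were removed the median r was 0.13, with Hmgcs1 and Idi1 at 0.76. The mean of the 8 genes, each centred on its own mean, was 0.07 ± 0.06 in DEX + TE mice, -0.01 ± 0.14 in DEX mice and -0.06 ± 0.05 in control mice on the log2 scale (SD, n = 3 each). Among 13668 other genes, the 5 whose profile over the 9 arrays was most like this mean were Alg11 (r = 0.93), Tug1 (0.93), Bet1l (0.91), Pde2a (0.90) and Asic1 (0.90). They are given as a description of 9 points, and none of them was called in any comparison.

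The other genes of sterol metabolism were followed through 6 lists with 84 genes, of which 73 had a probe set used here and 70 passed the filter. In DEX against control 0 of the 70 were called (background 0.607% of the 13676 genes tested). The same count was 0 in DEX + TE against DEX (0.00731%) and 0 in DEX + TE against control (0.453%). At an unadjusted p under 0.05, DEX against control had 6 higher and 3 lower (background 6.19% and 9.16%), DEX + TE against DEX had 3 higher and 0 lower (5.95% and 1.48%), and DEX + TE against control had 8 higher and 3 lower (7.69% and 6.77%). The Rank Product, run on the deposited values, called 0 of the 70 in each comparison. The paper ran its Rank Product on values normalized otherwise. Its gene lists from the upstream analysis hold FASN in DEX against control and SCD in DEX + TE against DEX.

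**Figure D4:**
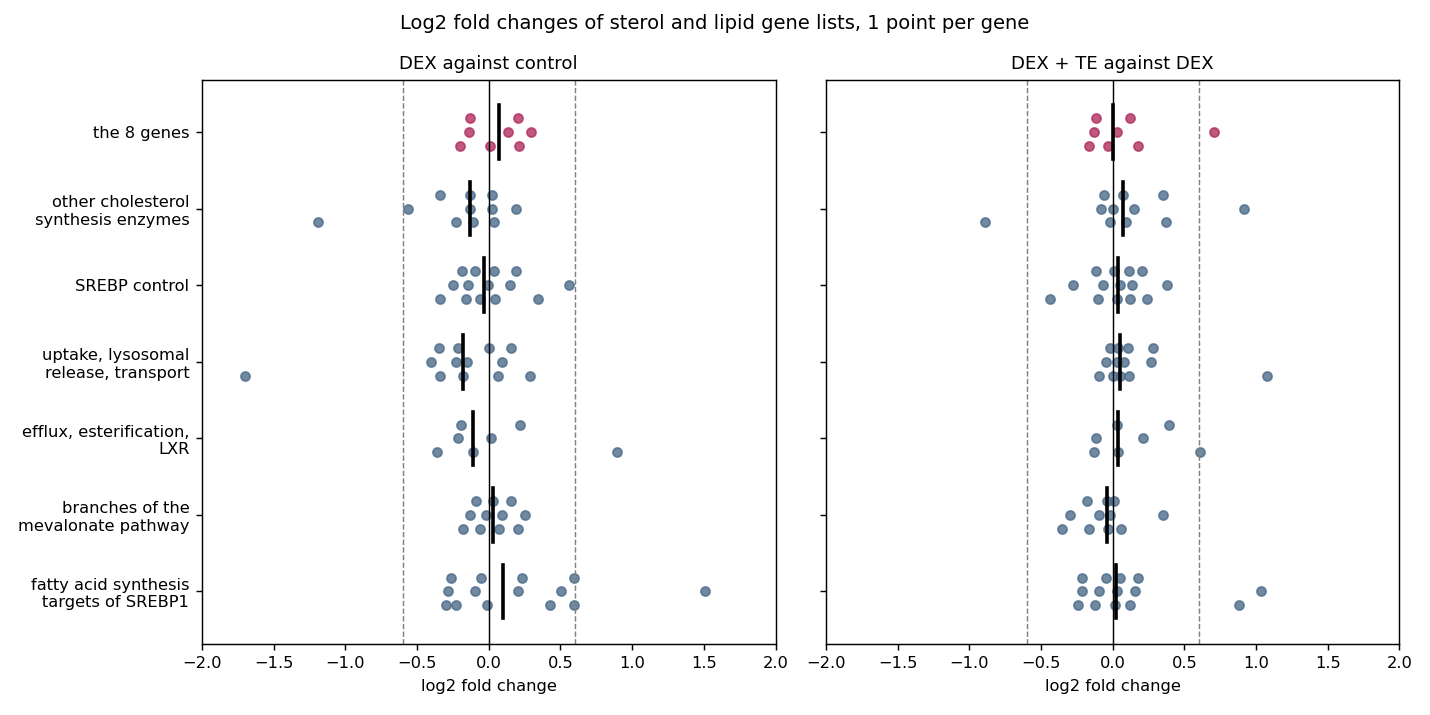
Log2 fold changes of the 8 genes (red) and of the 6 other lists (blue), 1 point per gene, in DEX against control and DEX + TE against DEX. Black bars are the medians of the lists and dashed lines the fold limit of 0.6. The farthest points in DEX against control are Stard5 at -1.70 and Fasn at 1.51, and neither was called. Stard5 was below 50 on some arrays.

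Among the other 11 cholesterol synthesis enzymes tested, the median log2 fold change in DEX against control was -0.13, with 4 above 0 and 7 below. Dhcr7, the last reductase of the pathway, had the largest difference of these, -1.19 (limma adjusted p = 0.572), with 1 DEX mouse at 16.8 beside 158 and 156. Msmo1, a sterol methyl oxidase, gave -0.56 (adjusted p = 0.70) and Nsdhl, a sterol dehydrogenase, -0.23. Mvd, the mevalonate diphosphate decarboxylase, was 0.02 in DEX against control and -0.89 in DEX + TE against DEX (adjusted p = 0.773), with overlapping groups, and its other probe set gave -1.34 and -0.39.

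Of the 14 genes that control SREBP processing, Srebf1, which encodes SREBP1, gave 3845, 3590 and 3538 in the DEX + TE mice, 2846, 3822 and 3565 in the DEX mice, and 2487, 1959 and 2492 in the control mice. Every DEX-injected mouse was above every control mouse. Its log2 fold changes were 0.56 in DEX against control (limma adjusted p = 0.167) and 0.67 in DEX + TE against control (adjusted p = 0.141). Srebf2, which encodes SREBP2, averaged 143 ± 36.1 in DEX + TE mice, 192 ± 38.9 in DEX mice and 172 ± 57.9 in control mice (SD, n = 3 each), a difference of 0.19 in DEX against control (95% interval -0.47 to 0.85, adjusted p = 0.794). Its other tested probe set gave 0.05 there, but the 2 disagreed in DEX + TE against DEX, at -0.44 for the brightest and 0.66 for the other, and in DEX + TE against control, at -0.25 and 0.72. Scap, the SREBP escort protein, gave 595, 586 and 471 in the DEX + TE mice, 643, 705 and 645 in the DEX mice, and 501, 538 and 534 in the control mice. The DEX group was apart from both others (0.34 in DEX against control, limma adjusted p = 0.256). The other tested Scap probe set gave 1.51 in DEX against control and -0.93 in DEX + TE against DEX. Erlin2, a partner of INSIG in the degradation of sterol enzymes, was -0.34 in DEX against control and 0.38 in DEX + TE against DEX, with overlap.

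In the list for uptake, lysosomal release and transport (13 genes tested) the median in DEX against control was -0.18. Vldlr, a lipoprotein receptor, averaged 16931 ± 1319 in DEX + TE mice, 16848 ± 436 in DEX mice and 21335 ± 1126 in control mice (SD, n = 3 each), and its difference of -0.34 in DEX against control did not pass the test (limma adjusted p = 0.190), with its other 5 probe sets at -0.38 to -0.19. Osbp, an oxysterol-binding transfer protein, was at -0.40 (adjusted p = 0.224), again with no overlap between the DEX and control groups. The lysosomal lipase gene Lipa gave -0.34 and the sterol carrier gene Stard5 -1.70 (adjusted p = 0.652 and 0.363), both with overlap.

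Among the 7 genes tested for efflux, esterification and LXR, Nr1h3, which encodes LXR alpha, gave 296, 277 and 260.3 in the DEX + TE mice, 315, 239 and 263 in the DEX mice, and 160.4, 106 and 181 in the control mice. The difference in DEX against control was 0.89 (limma adjusted p = 0.126), and the groups did not overlap. Ch25h, which makes 25-hydroxycholesterol, gave 103, 124 and 132 in the DEX + TE mice, 82.3, 70.8 and 80.9 in the DEX mice, and 90.2, 85.3 and 91.6 in the control mice. Its 0.61 in DEX + TE against DEX was larger than its spread but was not called (95% interval excluding 0, adjusted p = 0.350). Apoe, the carrier of cellular cholesterol, was at 0.40 in the same comparison (limma adjusted p = 0.570). Abcg1, a sterol exporter, was at 0.03 there, with its other probe set at 0.59. In DEX against control Abcg1 was at -0.36 (limma adjusted p = 0.679), with its other probe set at 0.12.

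Of the 11 genes on other branches of mevalonate, Ggps1, which makes geranylgeranyl diphosphate, was at 0.35 in DEX + TE against DEX (limma adjusted p = 0.602), while its other 3 probe sets gave -0.15 to -0.03. Icmt, a methyltransferase of prenylated proteins, was at -0.35, Rabggta, a subunit of the Rab prenyltransferase, at -0.30, and Coq2, of ubiquinone synthesis, at -0.10. In DEX against control Coq2 was at 0.25 (limma adjusted p = 0.394), with the DEX values above the control values.

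In DEX against control the pathway gene with the lowest adjusted p was a fatty acid synthesis target of SREBP1. This was Fasn, the fatty acid synthase, which gave 358, 313 and 366 in the DEX + TE mice, 429, 387 and 388 in the DEX mice, and 101, 208 and 134 in the control mice. Both DEX groups were clear of the control group. The log2 fold change in DEX against control was 1.51 (95% interval 0.93 to 2.08, limma adjusted p = 0.0568). Acaca, the acetyl-CoA carboxylase of lipogenic tissue, was at 0.60 (adjusted p = 0.117), with its other probe set at -0.11. Scd1, a fatty acid desaturase, gave 4049, 2878 and 6451 in the DEX + TE mice, 1340, 2811 and 3189 in the DEX mice, and 1045, 2026 and 1657 in the control mice, a difference of 1.47 in DEX + TE against control (adjusted p = 0.222). Elovl6, a fatty acid elongase, was at 1.03 in DEX + TE against DEX (adjusted p = 0.726), with overlap. The median of the 14 genes in DEX against control was 0.10, with 7 above 0 and 7 below, and the difference between this list and the 8 cholesterol genes was not tested.

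Markers of other cells in the muscle moved in the same comparisons, and their part in the values above was not tested. All 8 fibroblast markers were below 0 in DEX against control (median -1.29), and Col1a1, Col1a2, Col3a1 and Pcolce, collagens and a collagen-processing factor, were called lower. When each of the 9 arrays was left out in turn, Col3a1 stayed called in 9 fits, Col1a2 in 7 (not without control replicate 2 or control replicate 3), and Col1a1 and Pcolce in 1 each. All 4 calls were lost by the Rank Product and in the fit on the 6 arrays compared. The summed signal of the 8 markers was 29647 to 31398 in DEX + TE mice, 19108 to 23005 in DEX mice and 35807 to 54738 in control mice. Of the 7 adipocyte markers tested, Adipoq and Retn, 2 adipokines, were called higher in DEX + TE against control (2.19 and 1.69 on the log2 scale), in 3 and 1 of the 9 fits with an array left out, and neither by the Rank Product nor in the fit on the 6 arrays compared. Of the 7, 5 were above 0 in that comparison and 2 below, Lpl at -0.48 and Fabp4 at -0.21, both without overlap. The list summed to 46922 to 52376 in DEX + TE mice, 44360 to 48096 in DEX mice and 56751 to 66473 in control mice. The 10 skeletal muscle markers were all below 0 in DEX against control (median -0.44). With the deposited scaling all 10 were above 0 in DEX + TE against DEX (median 0.19). Centring the arrays on their medians shifts every value of a comparison alike. It moved the median of all probe sets there from 0.05 to -0.20, so the direction of these markers depends on the scaling. None of the 10 markers reached the fold limit of 0.6 (farthest -0.52 in DEX against control), and 0 were called. The lowest limma adjusted p of the 10 in DEX against control was 0.184 (Myh1). At an unadjusted limma p under 0.05, 9 were lower in DEX against control (background 9.16%). No leukocyte, endothelial or Schwann cell marker was called in any comparison, with 8, 8 and 7 tested. In DEX + TE against DEX all 8 fibroblast markers were above 0 (median 0.62), as were 7 of the 8 leukocyte markers (0.64). The Schwann cell markers had 6 above 0 and 1 below (0.25), and the endothelial markers 4 and 4 (-0.04). At an unadjusted limma p under 0.05, 6 fibroblast and 3 leukocyte markers were higher there (background 5.95%). None of the fibroblast or adipocyte markers was below 50 on all arrays.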

How the data were processed

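RNA of the tibialis anterior (250 ng per mouse, 3 mice per group) was hybridised to 9 Affymetrix 3′IVT arrays, and the sample labels gave the groups. The authors deposited linear intensities, 1 per probe set, scaled to a trimmed mean of 500 per array. They are therefore not the log2 values that the Robust Multi-array Average named in the methods yields, and the sources used here do not give the program. Symbols came from the array annotation (34945 probe sets with 1 symbol). Some probe set endings (_a_at, _s_at and _x_at) mark probes that can match several transcripts.

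Log2 was taken without an offset. Probe sets with a group mean of at least 50 (on the log2 scale) were tested with limma 3.58.1 in R 4.3.3, with 3 group means over all 9 arrays, 6 residual degrees of freedom and Benjamini-Hochberg adjustment over 29269 probe sets. Calls needed an adjusted p under 0.05 and a log2 fold change of 0.6 in size, the limits of the study's methods. The Rank Product named in the methods was reimplemented and run on the deposited values with 100 permutations. A gene was represented by its brightest probe set. Both scripts were tested on simulated data. The 8 genes and the 14 lists were chosen with earlier results of these data known. The pathway genes named are, in each list, the 4 with the largest difference in DEX against control or DEX + TE against DEX, and the marker genes named are mainly those called. The number of arrays limits the precision. Tables were handled in Python 3.11.15 with pandas 2.3.3, numpy 2.4.6 and scipy 1.17.1, and figures drawn with matplotlib 3.10.9. Alternatives were the filter, offset, scaling, variance model, probe set choice, arrays in the fit, Rank Product, replicate block and leaving out each array.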

Additional observations from a re-analysis of the deposited data

How the results depend on the processing

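The count of cholesterol synthesis genes called was 0 in each comparison under every alternative run. Centring the arrays on their medians moved the median of all probe sets to 0.08 in DEX against control, -0.20 in DEX + TE against DEX and -0.10 in DEX + TE against control, and the median of the 8 genes to 0.17, -0.25 and 0.021. Under that scaling Hmgcs1 (-0.22), Sqle (-0.13) and Cyp51 (-0.077) were below 0 in DEX + TE against DEX, and Fdps was -0.072 in DEX + TE against control. When each array was left out in turn, the median of the 8 genes ranged from -0.044 (without control replicate 1) to 0.14 in DEX against control, from -0.04 to 0.08 in DEX + TE against DEX, and from 0.09 to 0.20 in DEX + TE against control. Without DEX replicate 1 it was -0.02 in DEX against control, Idi1 was -0.21 there (range -0.21 to 0.14), and Idi1 was 0.049 in DEX + TE against DEX (range -0.30 to 0.049). Without DEX replicate 2, Lss was 0.17 in DEX against control (range -0.32 to 0.17). The causes were not tested.

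Of the other 70 pathway genes, Fasn alone was called in DEX against control with a group mean of at least 100 (1 gene), with log2 of the signal plus 16 (1 gene) and without control replicate 2 (1 gene). With a mean-variance trend in limma, Fasn and Nr1h3 were called there (2 genes), and Fasn, Nr1h3, Srebf1 and Scd1 in DEX + TE against control (4 genes). In DEX + TE against control Fasn was also called with a group mean of at least 100 (1 gene) and without control replicate 2 (1 gene). Leaving out other arrays gave 0. These genes were all higher in the DEX-injected mice.

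Replicate numbers are shared by the groups in the labels, but same-numbered arrays did not deviate together (r of -0.02 to 0.05 over 9 pairs). With the replicate block, 41 probe sets were called in DEX against control in place of 147, 0 in DEX + TE against DEX in place of 4, and 30 in DEX + TE against control in place of 111, and 0 of the 8 genes in each. Of the marker genes named in DEX against control, Fkbp5, Col1a2 and Col3a1 stayed called with the block and Sgk1, Col1a1 and Pcolce did not, nor did Adipoq and Retn in DEX + TE against control. It called 0 of the 70 pathway genes. Of the values of the 8 genes under the alternatives, 473 kept their side of the threshold without turning by more than their error, and 7 turned, all given above.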
